A study of Mus musculus with 19 samples.

Results

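The genes described here encode the subunits of the respiratory chain and ATP synthase. They were chosen by name: protein-coding genes whose mouse symbol begins with mt-Nd, mt-Co, mt-Cyt, mt-Atp, Ndufa, Ndufb, Ndufc, Ndufs, Ndufv, Uqcr, Cox4 to Cox8 or Atp5, together with Sdha to Sdhd, and with assembly factors and Ndufa4l2 left out. A member also needed a total of at least 100 counts over the tumours numbered 04 to 13. Of 39179 gene identifiers in the count table, 93 were members, of which 10 were encoded by the mitochondrial genome and 83 by the nucleus. Names alone gave 13 mitochondrially encoded genes, all in the table. Of these, mt-Nd3, mt-Nd4l and mt-Atp8 fell under 100 counts. Names gave 89 identifiers of nuclear genes, of which 87 were in the table. Ndufb1 and a further identifier of Atp5po were not in it. Cox7b2, Cox8b, Cox8c and Ndufb11b fell under 100 counts. One nuclear member, Cox5b-ps, carries a pseudogene's name but is annotated as protein coding.

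The samples were bulk liver tumours from male mice of mixed background, induced at 8 to 12 weeks of age, that carried the Ctnnb1tm1Mmt allele (HET) and Gt(ROSA)26Sortm1(MYC)Djmy (HOM) and received AAV8.TBG.PI.Cre.rBG at 640000000 genome copies per mouse. Cre, driven by the thyroxine-binding globulin promoter of hepatocytes, activates β-catenin from 1 allele and switches on human MYC, and each tumour grows from recombined hepatocytes over time. The labels list 13 such tumours, 3 non-tumour control livers at the same dose and 3 at 200000000000 genome copies. Only the 10 tumours 04 to 13 could be matched to a column of counts by number, so all values are from tumours, with 1 library each, and no comparison with control liver was made.

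Libraries held 11687034 to 36964427 gene counts (tumours 07 and 13). Levels are counts per 1000000 gene counts (CPM), scaled by the trimmed mean of M values (TMM). All 6 hepatocyte markers, Alb among them, were counted, and they summed to 23245 CPM in tumour 05 and to 27344 to 38446 CPM in the others. Tumours 05, 06 and 07 stood apart by the RNA of Rpph1, which is made without a poly(A) tail, at 40.3, 30.0 and 51.8 CPM against 0.756 to 4.28 CPM in the other 7. Tumour 07 also had the highest sums of red cell markers (6203 CPM, against 103 to 1778 CPM elsewhere) and of endothelial markers (311 CPM, lowest 37.0 CPM). Sums of the members, median spreads, correlations between pairs and counts of positive slopes are given with and without these 3 libraries, and most values of single genes and the limma intervals only over all 10.

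The respiratory chain passes electrons from NADH and succinate to oxygen while pumping protons across the inner mitochondrial membrane, and ATP synthase uses the proton gradient to make ATP. Complex I (NADH dehydrogenase), complex III, complex IV (cytochrome c oxidase) and complex V (ATP synthase) are built from subunits of both genomes, whereas complex II (succinate dehydrogenase) is entirely nuclear. The mitochondrial mRNAs are cut from long transcripts of both strands made by a dedicated polymerase, while each nuclear subunit has its own promoter. Liver is rich in mitochondria, and hepatocytes use the chain to drive urea synthesis and gluconeogenesis. By complex, the members were 5 mitochondrial and 36 nuclear in complex I, 4 nuclear in complex II, 1 and 8 in complex III, 3 and 17 in complex IV and 1 and 18 in complex V.

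The 13 mitochondrially encoded genes fell into 2 sets by their counts, and sequence is shown here because the sets differ in how much of each transcript also lies in the nuclear genome. Every stretch of 36 bases, the read length, was searched for in the rest of the GRCm39 genome. For mt-Co2, mt-Co3, mt-Atp6, mt-Atp8 and mt-Nd4l, 100% of these 36-mers occurred elsewhere, and for mt-Nd3 99.0%, in each case all with a match on chromosome 1. The nuclear copy Atp6-ps equalled mt-Atp6 at each of the 678 bases compared. Bases 301 to 360 of both transcripts, from GENCODE on GRCm39, are given 5′ to 3′, with no capitals since no base differs.
mt-Atp6: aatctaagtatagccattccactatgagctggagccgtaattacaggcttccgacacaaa
Atp6-ps: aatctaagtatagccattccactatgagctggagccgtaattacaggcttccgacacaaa

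In mt-Co1, the catalytic subunit of complex IV, 59.7% of 36-mers had a copy elsewhere. Its chromosome 2 copy, Gm13340, differed at 37 of 1545 bases. The 60 bases with the most differences, 460 to 519, are printed with the 4 differing bases in capitals.
mt-Co1: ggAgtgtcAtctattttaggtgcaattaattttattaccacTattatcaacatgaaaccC
Gm13340: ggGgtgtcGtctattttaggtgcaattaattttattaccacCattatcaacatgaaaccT

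In mt-Nd1, a membrane subunit of complex I, no 36-mer occurred elsewhere. Its bases 301 to 360 stand for a sequence that a read of that length places once.
mt-Nd1: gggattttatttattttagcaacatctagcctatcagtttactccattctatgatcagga

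The set with copies throughout was almost uncounted. The 6 genes together held 1.43 to 6.60 CPM per tumour. The most counted was mt-Co3, a core subunit of complex IV, at 0.628 to 3.04 CPM (median 1.12), and mt-Atp8, a subunit of the proton channel of ATP synthase, had 1 count over all tumours. Between 45.4% and 57.9% of the alignment lines of a library were listed as not unique, and these lines carry no gene. The values of the 6 genes count only uniquely placed reads, were not read as levels of their mRNAs, and the part of the copies in them was not tested further. The other 7 genes ranged from 454 CPM (mt-Nd6) to 10613 CPM (mt-Co1) on average. For mt-Co1 and mt-Nd4, with 59.7% and 62.6% of 36-mers copied, reads in copied sequence may be missing from the counts. Read positions were not analysed here, a mate can place a read in copied sequence, and the search used a later build than the counts.

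Per kilobase of transcript, mt-Co1 led with a mean of 6869 CPM per kb, followed by mt-Cytb, the cytochrome b of complex III, at 5078, mt-Nd1 at 3708, mt-Nd2 at 2273, mt-Nd4 at 1645, mt-Nd5 at 982 and mt-Nd6 at 874. The last is the only protein-coding gene on the other strand of the mitochondrial genome. Neighbours in this order overlapped in their ranges over tumours, since each of the 7 genes differed at least 3.87-fold between the highest and the lowest tumour. The plot of level against copies places the 6 genes with full copies below every other mitochondrially encoded gene.

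**Figure D1:**
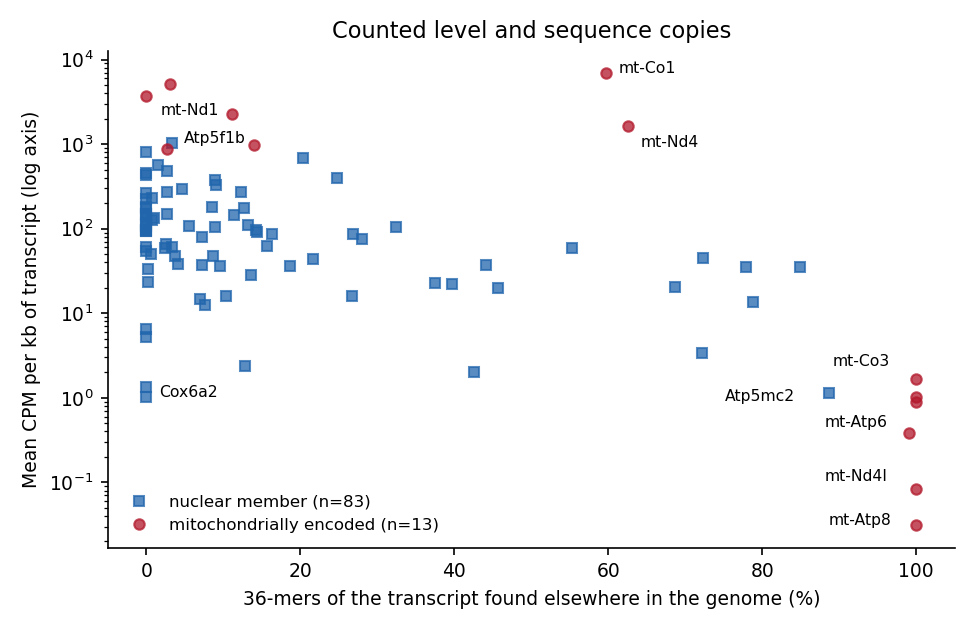
Mean level over 10 tumours (CPM per kb of transcript, log axis) against the percentage of a transcript's 36-mers found elsewhere in the genome, for 83 nuclear members (squares) and all 13 mitochondrially encoded genes (circles). The 6 mitochondrially encoded genes at 99.0% and 100% lie between 0.0311 and 1.67 CPM per kb, while the other 7 lie at 874 CPM per kb or more.

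Nuclear members with many copies also had low counts. The 11 with at least 40% of 36-mers elsewhere had a median of 20.4 CPM per kb and a highest value of 58.8, against a median of 108 and a highest value of 1017 among the 51 with under 10%. Across the 83 members, Spearman's rho between the 2 measures was -0.36, as a description of genes that share libraries and mapping. Examples were Atp5mc2, a gene for the membrane ring of ATP synthase, at 1.15 CPM per kb with 88.6% copied, and Ndufs5, a small complex I subunit, at 13.7 CPM per kb with 78.8% copied. A low value of such a member was not read as low expression.

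The mitochondrially encoded mRNAs differed widely between tumours. Their summed level was 52239 CPM in tumour 04, 11216 in tumour 05, 14254 in tumour 06, 26717 in tumour 07 and 21434 in tumour 08. It was 34443 CPM in tumour 09, 21950 in tumour 10, 32423 in tumour 11, 35046 in tumour 12 and 18732 in tumour 13. Tumour 04 was 4.66 times tumour 05, with a mean of 26845 ± 12123 CPM (SD, n = 10). As a share of gene counts the sum ran from 1.10% in tumour 05 (95% Wilson interval 1.09% to 1.10%, counting error only) to 5.21% in tumour 04. Reads of the genes with copies throughout are almost absent from this sum. Because the tissue was bulk, fewer cells rich in mitochondria and less mitochondrial RNA per cell cannot be told apart. Tumour 05 was also the lowest in the sum of hepatocyte markers (23245 CPM), and the part of this was not tested.

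Each of the 7 well-counted genes was highest in tumour 04 and lowest in tumour 05. mt-Nd6 varied most, from 155 to 1094 CPM (median 447), and mt-Co1 least, from 5443 to 21059 CPM (median 10052). mt-Cytb ran from 2128 to 12117 CPM (median 4434), mt-Nd1 from 1297 to 6137 CPM (median 3514) and mt-Nd2 from 637 to 3920 CPM (median 2490). mt-Nd4 ran from 851 to 4280 CPM (median 1955) and mt-Nd5 from 703 to 3628 CPM (median 1849). Over the 10 tumours the median Pearson correlation of log2 CPM between pairs of these genes was 0.91 and the lowest 0.74. In the 7 tumours other than 05, 06 and 07 these were 0.91 and 0.78. These 21 pairs share libraries, and those without mt-Nd6, which lies on the other strand, also share precursor transcripts. All are given as a description.

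The mRNAs did not keep a fixed ratio to the mitochondrial rRNAs mt-Rnr1 and mt-Rnr2. The rRNAs summed to 1559, 1366, 1030, 2736 and 368 CPM in tumours 04 to 08 and to 1823, 451, 423, 417 and 271 CPM in tumours 09 to 13. The ratio of mRNA to rRNA therefore ran from 8.21 in tumour 05 to 84.1 in tumour 12. It is a ratio of counted reads. Copies of the rRNAs elsewhere in the genome were not searched for, and the mRNA sum holds almost no reads of the genes with copies throughout. Tumours 05, 06 and 07, where Rpph1 was highest, had ratios of 8.21 to 13.8, below the 18.9 to 84.1 of the other tumours. The libraries were made from polyadenylated RNA, and the part of transcript selection in these levels was not tested. Without those 3 tumours the mitochondrially encoded sum still differed 2.79-fold between tumours, from 18732 to 52239 CPM.

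**Figure D2:**
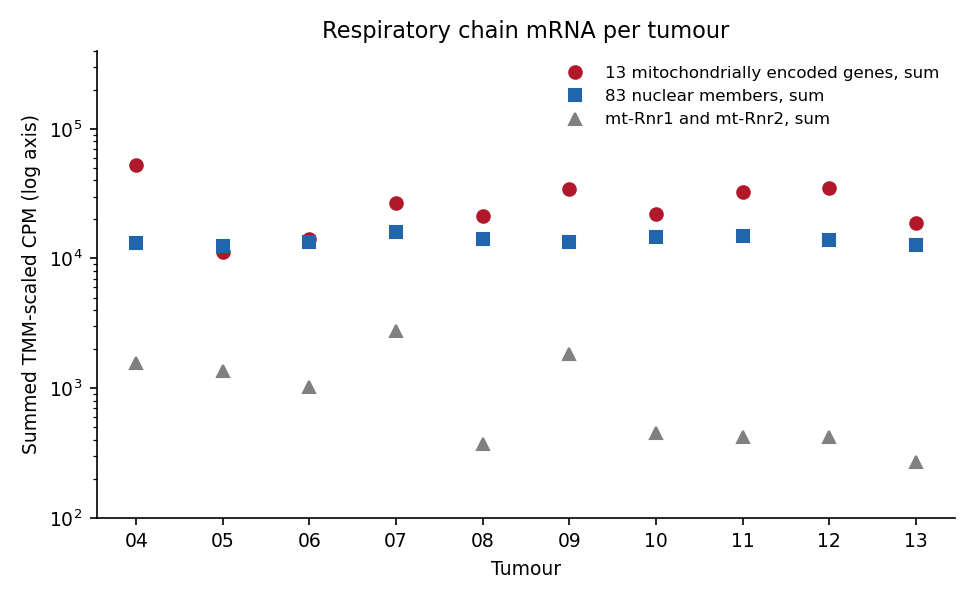
Summed TMM-scaled CPM (log axis) in each of the 10 tumours for the 13 mitochondrially encoded genes (circles), the 83 nuclear members (squares) and the 2 mitochondrial rRNAs (triangles). The nuclear sums lie between 12548 and 15878 CPM, while the mitochondrially encoded sums run from 11216 to 52239 CPM.

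The nuclear members held a narrow range in the same libraries. Their sum was 13273, 12548, 13392, 15878 and 14175 CPM in tumours 04 to 08. It was 13353, 14739, 15004, 13910 and 12817 CPM in tumours 09 to 13. Tumour 07, the highest, was 1.27 times tumour 05, the lowest, and the mean was 13909 ± 1047 CPM (SD, n = 10). Without tumours 05, 06 and 07 the highest was 1.17 times the lowest. The mitochondrially encoded sum was thus 0.894 times the nuclear sum in tumour 05, 1.06 times in tumour 06 and 3.94 times in tumour 04. In the other tumours this ratio lay between 1.46 and 2.58. The 6 mitochondrially encoded genes with copies throughout were almost uncounted. The ratio is therefore one of counted reads, not of all respiratory chain mRNA from both genomes.

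Sums of the complexes were as narrow. The nuclear members of complex V summed to 4496 to 5810 CPM, those of complex I to 3422 to 4484, those of complex IV to 1912 to 2382, those of complex III to 1609 to 2133 and those of complex II to 944 to 1198 CPM. The highest tumour was 1.25 to 1.33 times the lowest, and 1.12 to 1.27 times without tumours 05, 06 and 07. Tumour 07 was highest in 4 of the 5 complexes and tumour 10 in complex II. Tumour 05 was lowest in 4 and tumour 13 in complex IV.

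In complex I, which oxidises NADH, Ndufa6 had the highest level per length, at 484 CPM per kb. Its values ran from 196 CPM in tumour 06 to 406 in tumour 07 (median 284). Ndufb4 had the lowest, at 2.04 CPM per kb, with 42.5% of 36-mers copied. The steadiest was Ndufa10, an accessory subunit, at 218 to 298 CPM (SD of log2 CPM 0.13), and the least steady Ndufa12, another accessory subunit, at 12.2 to 32.0 CPM (SD 0.51). Ndufa12 was under 14 CPM in tumours 04, 05, 06 and 08 and at least 16.8 CPM in the others.

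Complex II, the entry for electrons from succinate and an enzyme of the citric acid cycle, had the lowest median SD of log2 CPM over single members (0.18), although the sum over complex IV varied less between tumours (1.25-fold) than that over complex II (1.27-fold). The SDs of its 4 members ran from 0.14 to 0.25. Sdha, the flavoprotein, ran from 393 to 556 CPM (median 444). Sdhb, the iron-sulphur subunit, ran from 137 to 241 CPM (median 187), with the lowest value in tumour 04. Per kilobase Sdhd, a membrane anchor, was highest at 178 CPM and Sdhb lowest at 47.6 CPM. This order rests on annotated transcripts of 1258 bases for Sdhd and 4030 for Sdhb. The lengths present in the tumours were not measured.

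In complex III, which passes electrons from ubiquinol to cytochrome c, Uqcr10 led with 373 CPM per kb. Uqcrb was lowest at 20.4 CPM per kb, with 68.6% of 36-mers copied. Uqcrfs1, the Rieske iron-sulphur protein, was the steadiest at 216 to 266 CPM (SD of log2 CPM 0.11). Uqcr11, a small subunit, was the least steady. Its values were 106 CPM at the lowest (tumour 13), 157 at the median and 254 at the highest (tumour 07), with an SD of 0.39.

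In complex V, Atp5f1b, the catalytic β-subunit of ATP synthase, was the most abundant nuclear member on either scale, at 1017 CPM per kb. It ran from 1468 CPM in tumour 13 to 2350 in tumour 11 (median 1997). Atp5f1a, the partner α-subunit, was the steadiest, at 1014 to 1303 CPM (SD of log2 CPM 0.14). The ring subunit, one protein made from 3 genes, was counted mostly from Atp5mc3 at 302 to 529 CPM (median 449). Atp5mc1 gave 15.2 to 31.8 CPM and Atp5mc2 0.182 to 1.43 CPM, but 84.9% and 88.6% of their 36-mers were copied. Atp5mg, with 72.2% copied, had the largest SD of log2 CPM in complex V (0.78, from 0.869 to 4.80 CPM). Atp5if1, the inhibitor of the enzyme's reverse reaction, ran from 58.4 to 89.2 CPM.

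In complex IV, which reduces oxygen to water, tissue isoforms were separated by more than the range between tumours. Cox4i1, the general form of the largest nuclear subunit, ran from 464 to 727 CPM (median 665) and had the highest level per length of the complex, 814 CPM per kb. Cox4i2, a form known from lung, ranged from 0.0955 to 2.54 CPM (median 1.09). It was 0.966 CPM or more in tumours 04 to 09 and 0.252 CPM or less in tumours 10 to 13. Of the marker sums of other cell types, the endothelial and the stellate and matrix sums divided at the same tumours. The 6 endothelial markers summed to 83.1 to 311 CPM in tumours 04 to 09 and to 37.0 to 42.2 CPM in tumours 10 to 13, and the 6 stellate and matrix markers to 414 to 1749 and 228 to 351 CPM. The sums of macrophage markers (88.6 to 261 and 84.4 to 159 CPM), lymphocyte markers (3.57 to 15.2 and 3.11 to 12.6 CPM), cholangiocyte markers (60.2 to 146 and 13.6 to 106 CPM) and red cell markers (219 to 6203 and 103 to 236 CPM) overlapped. None of these markers was at 0 in every tumour, and their part in the Cox4i2 values was not tested. The Cox4i2 values rest on 2 to 40 counts a library, with a limit of 3 counts standing for 0.0812 to 0.257 CPM.

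Cox6a1, the liver form, ran from 286 to 494 CPM (median 401), and the heart and muscle form Cox6a2 from 0.0657 to 2.30 CPM (median 0.561). Cox6a2 was lowest per length in the complex at 1.02 CPM per kb, and it was above 0.8 CPM in tumours 04, 05, 06, 10 and 13. The 6 skeletal muscle markers summed to 0.334 to 7.79 CPM. Their sum was highest in tumour 04 and was 1.72 and 1.09 CPM in tumours 05 and 06, but it was 0.334 and 0.434 CPM in tumours 10 and 13, and 2.22 and 1.02 CPM in tumours 09 and 12, where Cox6a2 was low. Their part in the Cox6a2 values was not tested.

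Cox6b1, the general form, was the steadiest nuclear member of all, at 190 to 240 CPM (median 217, SD of log2 CPM 0.090). Its testis form Cox6b2 was lowest in tumour 07 (0.739 CPM) and highest in tumours 10 and 09 (11.2 and 10.8 CPM), with at most 3.48 CPM elsewhere. Cox7a2, the general form, ran from 123 to 207 CPM, and Cox7a1, of muscle, from 0.625 to 4.49 CPM. Cox8a ran from 174 to 271 CPM, and the muscle form Cox8b had 4 counts in all. Ndufa4, once placed in complex I, ran from 97 to 192 CPM (median 137). Of the low forms Cox4i2, Cox6a2, Cox6b2, Cox7a1 and Cox8b, none had more than 1.66% of its 36-mers elsewhere.

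**Figure D3:**
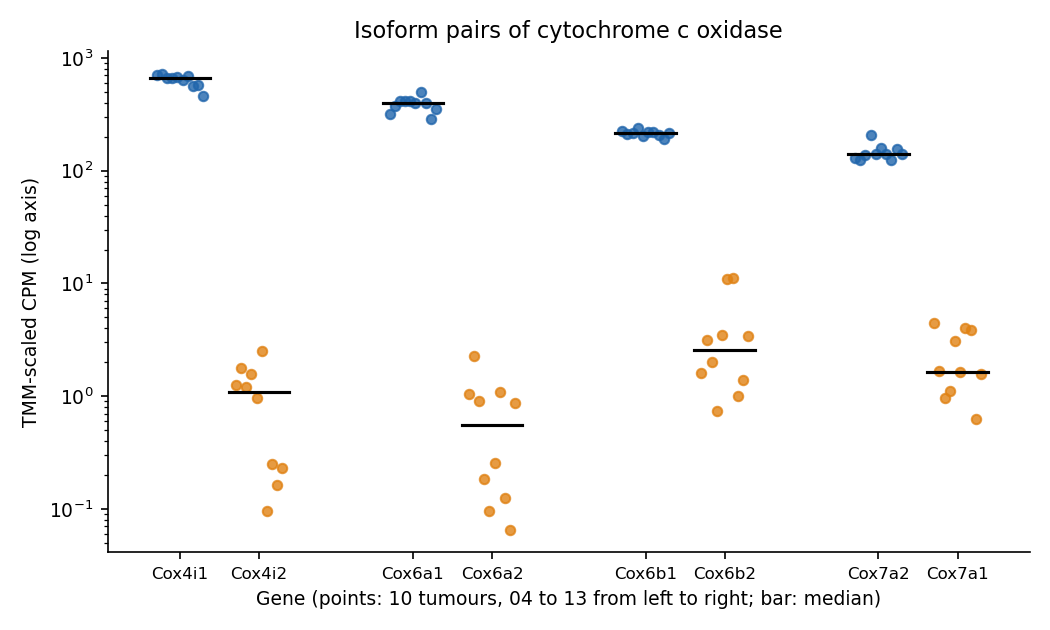
TMM-scaled CPM (log axis) of 4 isoform pairs of cytochrome c oxidase, with 1 point per tumour from 04 (left) to 13 (right) and a bar at the median. Each general form (left of its pair) lies at 123 CPM or more in every tumour, and each tissue form lies at 11.2 CPM or less.

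The spread of the nuclear members was small beside that of other genes. Among the 12462 genes that passed the filter on low counts, 54.7% differed at least 2-fold between the highest and the lowest tumour, against 19 of the 80 nuclear members that passed. These were 37.4% of all genes and 11 of the 80 without tumours 05, 06 and 07. A range of 4-fold was reached by 15.9% of all genes and by 3 nuclear members, Cox6b2, Cox7a1 and Atp5mg. The median SD of log2 CPM was 0.24 for the 80 and 0.33 for all genes, and 68 of the 80 lay below the latter. With the least abundant genes left out, those under the 5th percentile of the nuclear members' mean, the median over the remaining 9875 genes was 0.30. Of these 9875 genes, 47.0% differed at least 2-fold. The 7 well-counted mitochondrially encoded genes all had a range of at least 2-fold, with SDs of 0.61 to 0.88 and a median of 0.75. Without tumours 05, 06 and 07 the median SDs were 0.21 for nuclear members, 0.30 for all genes and 0.54 for these 7 genes, and those of the complexes ran from 0.17 (complex II) to 0.26 (complex IV).

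**Figure D4:**
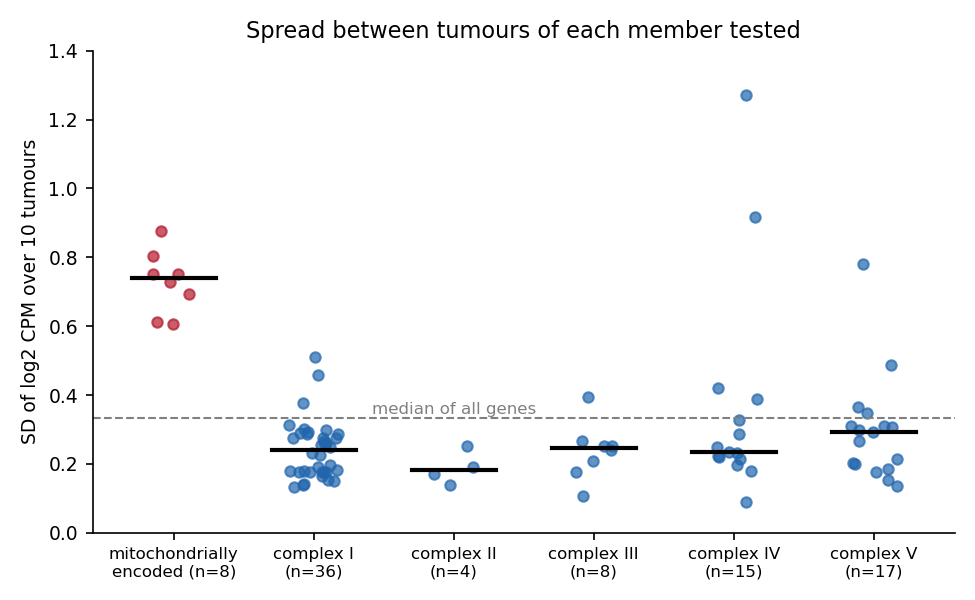
SD of log2 CPM over the 10 tumours for each member that passed the filter on low counts, by complex (points), with the median of each set (bars) and of all 12462 genes (dashed line, 0.33). The mitochondrially encoded members lie at 0.61 to 0.88, among them mt-Co3, whose values were not read as levels, and the medians of the complexes lie at 0.18 to 0.29.

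Pairs of nuclear members were weakly correlated across tumours, and less so without the 3 libraries. The median Pearson correlation of log2 CPM over 10 tumours was 0.25 for the 3160 pairs of nuclear members and -0.0010 for pairs of all genes. It was 0.29 within a complex and 0.22 between complexes, with 0.32 within complex I (630 of the 905 pairs), 0.25 within complexes II and V, 0.15 within complex III and 0.12 within complex IV, all as a description of genes that share libraries. Without tumours 05, 06 and 07 the median over 7 tumours was 0.11 for pairs of nuclear members, 0.12 within a complex (from -0.15 in complex III to 0.16 in complex I), 0.10 between complexes and -0.0010 for pairs of all genes. In tumour 07, 33 of the 80 had their highest value, against 13.5% of all genes, and in tumour 11 another 16, against 10.3%. In tumour 05, 28 of the 80 had their lowest value, against 15.6% of all genes, and in tumour 13 another 12, against 7.55%. The median deviation of the members from their own mean was 0.21 in tumour 07 and -0.17 in tumour 05 on the log2 scale. Tumour 07 is the library with the fewest counts, the most Rpph1 and the most red cell RNA, and the part of these in its high values was not tested.

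Some nuclear members deviated in the direction of their chromosome, though not in every tumour. Ndufa6, Ndufb9 and Cox6c, on chromosome 15, had a median deviation of 0.33 from the other tumours in tumour 04, -0.36 in tumour 06, -0.45 in tumour 09, -0.30 in tumour 12 and -0.29 in tumour 13. All 490 genes tested on that chromosome had medians of 0.33, -0.22, -0.26, -0.27 and -0.22 in the same tumours. In tumour 07 the 3 members stood at 0.46 and the chromosome at 0.0082. Atp5f1b, Atp5f1d, Ndufa12, Ndufs7 and Uqcr11, on chromosome 10, had a median deviation of -0.45 in tumour 13, where the 594 genes of the chromosome had -0.37. In tumour 11 the values were 0.56 for the members and 0.24 for the chromosome, and in tumour 07 0.57 and 0.21. In tumour 05 the members stood at -0.24, with none of the 5 above 0, and the chromosome at 0.042, and in tumour 06 at -0.24 and -0.043. DNA copy number was not measured here.

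The question of whether nuclear members followed the mitochondrially encoded mRNAs was put to every gene, by its slope on log2 summed CPM of the 13 genes. A slope of 1 means the same fold and 0 no relation. By edgeR's quasi-likelihood test at an adjusted p of 0.05, 0% of the 12454 genes tested were called (1235 had an unadjusted p under 0.05, 9.92%). None of the 80 nuclear members was called by edgeR, and 2 had an unadjusted p under 0.05. DESeq2 called 24 genes (0.193%) and limma none, with no nuclear member among them in either.

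The slopes of the nuclear members were small. Their median was 0.078 against 0.0047 for all genes, and 61 of the 80 were positive against 50.9% of all genes. Without tumour 05, 47 were positive. Without tumours 05, 06 and 07, 33 of 81 were positive and the median was -0.019, so the lean to positive slopes was not seen without those libraries. By limma, a test added after the data were seen, the 95% interval of the slope lay wholly below 1 for 78 of the 80 (91.5% of all genes) and wholly below 0.5 for 66 (68.0% of all genes). The 2 whose interval reached 1 were Cox7a1 and Atp5mg, both under 5 CPM in every tumour.

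**Figure D5:**
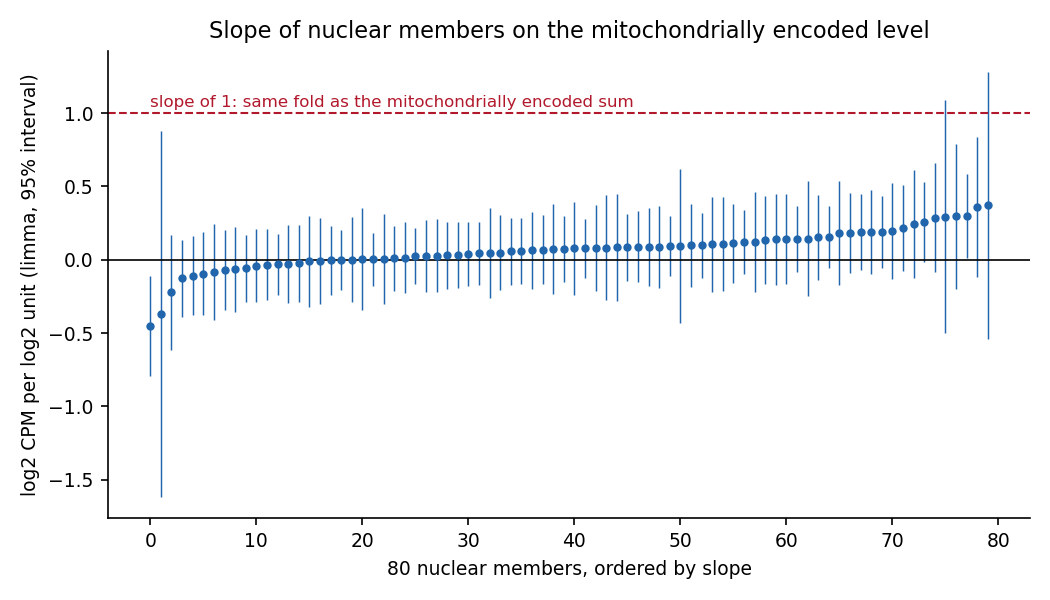
Slope of log2 CPM on the log2 summed CPM of the mitochondrially encoded genes, with its 95% interval by limma, for the 80 nuclear members in order of slope. The points lie between -0.45 and 0.37, and 78 intervals end below the dashed line at 1.

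The 2 members with an unadjusted p under 0.05 went in opposite directions, and neither was called. Of all genes, 3.44% had such a p with a positive slope and 6.48% with a negative one. Atp5me, a small membrane subunit of ATP synthase, had a slope of 0.30 (edgeR adjusted p = 0.475). Its lowest value was 22.6 CPM (tumour 13) and its highest 40.1 CPM (tumour 04). Cox5b-ps had a slope of -0.43 (edgeR adjusted p = 0.448). Its lowest value was 11.1 CPM (tumour 04) and its highest 24.8 CPM (tumour 05), and 77.9% of its 36-mers lay elsewhere in the genome.

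Other genes of the pathway were counted from lists drawn up for it. Of 49 assembly factors, which build the complexes but do not stay in them, 47 were tested and none was called by edgeR. An unadjusted p under 0.05 was found for 3 of the 47, against 9.92% of all genes. The 3 were Timmdc1, Tmem242 and Ndufaf1, all with positive slopes (0.27, 0.30 and 0.43). Of 28 genes for electron carriers and the citric acid cycle, all tested, and of 14 for coupling and carriers, 11 tested, none was called and none had an unadjusted p under 0.05. Of 24 regulators, 21 were tested and none was called. An unadjusted p under 0.05 was found for 2 of the 21, 1 with a positive and 1 with a negative slope, against 9.92% of all genes. Tfam, which packages and transcribes mitochondrial DNA, had a slope of 0.28 (edgeR adjusted p = 0.50) and Yy1, a transcription factor of nuclear subunit genes, -0.29 (edgeR adjusted p = 0.427). Lrpprc, which stabilises mitochondrial mRNAs, ran from 89.3 to 206 CPM and was highest in tumour 12.

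Ppargc1a encodes PGC-1α, a coactivator of nuclear respiratory chain genes, and was tested as a second measure. Its level was 11.2, 9.76, 6.01, 3.60 and 10.2 CPM in tumours 04 to 08 and 12.8, 8.07, 6.12, 7.99 and 7.59 CPM in tumours 09 to 13. Tumour 07 was the lowest. By edgeR's quasi-likelihood test on 12461 genes, 0% were called (797 had an unadjusted p under 0.05, 6.40%) and none of the 80 nuclear members was called. DESeq2 called 1 gene (0.00803%), which was no nuclear member.

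Slopes on Ppargc1a leaned to the negative. They were positive for 12 of the 80 nuclear members, against 52.1% of all genes, with a median of -0.17 against 0.014. Without tumour 07, 25 were positive, and without tumours 05, 06 and 07, 23 of 81. With an unadjusted p under 0.05, 7 nuclear members had a negative slope, against 3.18% of all genes, and 1 a positive slope, against 3.22%. Ndufs3, a core subunit of complex I, had a slope of -0.36 and Atp5f1e, the ε-subunit of ATP synthase, of -0.47 (edgeR adjusted p = 0.769 for both). The others were Ndufb5, Atp5pd, Atp5po, Uqcrq and Ndufc1, with slopes from -0.40 to -0.26. All 7 had their highest value in tumour 07, and without it their slopes lay between -0.26 and -0.087, that of Ndufs3 at -0.26 and that of Atp5f1e at -0.14. With tumours 05 and 06 also left out, these 2 were -0.11 and -0.22. The positive one was Cox6b2, with a slope of 1.77 (1.61 without tumour 07). The 7 well-counted mitochondrially encoded genes all had positive slopes, from 0.058 (mt-Nd2) to 0.89 (mt-Nd6, edgeR adjusted p = 0.769), and mt-Nd6 alone had an unadjusted p under 0.05. Without tumours 05, 06 and 07 all 7 were positive (0.32 to 0.84), but 5 without tumour 04, 6 without tumour 06, 5 without tumour 09 and 4 with Rpph1 as a covariate. Neither these nor the assembly factors (47 tested) and regulators (20 tested) were called.

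Column names carry a tag that divides the tumours into 3 families, named here as there: RMH4 (tumours 04 to 06), RMH18 (07 and 08) and RMH35 (09 to 13). The labels do not say what it stands for. By edgeR's quasi-likelihood test over the families, 1 of 12462 genes was called (0.00802%) and none of the 80 nuclear members, the smallest adjusted p among them being 0.268. DESeq2 called 508 genes (4.08%) but no nuclear member. At an unadjusted p under 0.05 there were 6 nuclear members, against 14.0% of all genes. The smallest p belonged to Ndufv2, a subunit of the NADH-oxidising module, at 69.0 to 88.4 CPM in RMH4, 85.0 to 104 in RMH18 and 100.1 to 121 in RMH35.

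The mitochondrially encoded sum overlapped between families. It ran from 11216 to 52239 CPM in RMH4, from 21434 to 26717 in RMH18 and from 18732 to 35046 in RMH35. The widest spread lay within RMH4, which held both the highest and the lowest tumour. The nuclear sum in RMH4 ran only from 12548 to 13392 CPM.

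Promoters are described as sequence that the choice of members did not use, and 2 are shown. RefSeq windows of GRCm38.p6, from 250 bases before to 50 after a start, were found for 66 of the 83 nuclear members. The letters of the NRF1 motif, GCGCA followed at once by its reverse complement TGCGC (the same on both strands), were in the windows of 5 of the 66 (7.58%) and of 1.07% of 27025 genes. Those of YY1, AAGATGGC on either strand, were in 10 (15.2%) against 3.19%, of ETS factors, CCGGAAGT on either strand, in 5 (7.58%) against 4.31%, and of ERR, TCAAGGTCA on either strand, in 2 (3.03%) against 0.47%. The E-box CACGTG (the same on both strands), bound by MYC among other factors, was in 6 (9.09%) against 8.09%. A match of letters is not a binding site, and no binding was measured. No member had the letters of 2 of the motifs NRF1, ETS and YY1. In the sequences, matches are in capitals. The window of Cox6a1, at chr5:115348909-115349208 (minus strand), is shown for the abundant liver form with its NRF1 letters. The window of Uqcr11, at chr10:80406772-80407071 (minus strand), is shown for the least steady member of complex III with its ETS letters.
Cox6a1: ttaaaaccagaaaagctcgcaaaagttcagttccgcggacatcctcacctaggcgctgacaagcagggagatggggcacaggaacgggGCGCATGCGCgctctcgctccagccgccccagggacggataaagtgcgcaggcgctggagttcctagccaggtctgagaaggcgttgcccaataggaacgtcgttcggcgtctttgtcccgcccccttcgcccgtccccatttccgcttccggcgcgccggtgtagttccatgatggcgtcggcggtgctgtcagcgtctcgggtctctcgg
Uqcr11: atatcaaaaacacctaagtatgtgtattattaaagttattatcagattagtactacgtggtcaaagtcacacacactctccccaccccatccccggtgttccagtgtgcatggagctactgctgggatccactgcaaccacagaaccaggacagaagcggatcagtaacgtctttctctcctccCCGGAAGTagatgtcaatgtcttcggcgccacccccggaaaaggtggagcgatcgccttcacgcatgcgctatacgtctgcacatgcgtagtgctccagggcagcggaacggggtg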

How the data were processed

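Bulk RNA from 10 tumours was sequenced as paired 36-base reads of TruSeq stranded mRNA libraries, a kit that selects polyadenylated RNA. The deposited values are counts of reads per gene, made by the authors with TopHat2, HTSeq and GRCm38 per the labels' processing notes. The study's methods instead describe STAR, featureCounts and GRCm39 for single reads. Summary lines in the table carry HTSeq's names, but the aligner and build, on which the placing of copied reads depends, remain uncertain. Versions were not given in the sources used here. Rows that name no gene were left out (not unique, 45.4% to 57.9% of lines, no feature, 3.60% to 6.97%, ambiguous, 1.16% to 1.66%). Of 19 columns, 9 matched no single label and were not used. Human MYC was not counted separately.

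Gene symbols came from GENCODE and matched 87.29% of identifiers. CPM used TMM factors (edgeR 4.0.16), with a prior count of 2 on the log2 scale. Tests were edgeR's quasi-likelihood test on genes passing filterByExpr, adjusted by Benjamini-Hochberg over all genes, with DESeq2 1.42.0 and limma 3.58.1 as alternatives. Only edgeR's test was also run on simulated counts, which had the same dispersion for every gene and no libraries that stood apart. With nothing saying that tumours came from separate mice, p-values measure the spread between these samples. Levels between genes are per kilobase of the canonical transcript. Where another isoform is the one expressed, the level per kilobase and the order of genes would differ, and isoforms were not measured. Named genes were all mitochondrial members, the extremes of level and spread in each complex, isoform pairs, members called (none) and members where 1 tumour stood apart. Members with an unadjusted p under 0.05, Ndufs5, Atp5if1, genes of other lists and genes of chromosomes 10 and 15 were named after their values were seen. The members and lists were chosen with earlier results of these data known.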

Additional observations from a re-analysis of the deposited data

Results flagged for a closer look

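In 4 of the 93 members tested and in 1 of the 7 sums, the gap between 1 tumour and its nearest neighbour, divided by the range of log2 CPM over the 10 tumours, was above Dixon's 95% critical value. Chance flags about 5% of such groups. In each case the tumour that stood apart was tumour 07, at the top. For Cox7a2, a general subunit of complex IV, the ratio was 0.516, with 207 CPM against 123 to 159 CPM in the other tumours. For Atp5po, the stalk subunit of ATP synthase, it was 0.508, with 125 CPM against 84.4 to 102 CPM. For Ndufa5, of complex I, it was 0.483, with 61.0 CPM against 39.5 to 49.5 CPM. For Atp5f1e, the ε-subunit of ATP synthase, it was 0.475, with 414 CPM against 194 to 288 CPM. For the sum of the 8 nuclear members of complex III it was 0.505, with 2133 CPM against 1609 to 1850 CPM. Tumour 07 had the fewest gene counts (11687034), the highest Rpph1 (51.8 CPM) and the highest sum of red cell markers (6203 CPM), and the part of these was not tested.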

How the results depend on the processing

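No paired analysis was possible because all samples used belong to 1 group. Under every alternative run, 0 nuclear members were called in the 3 tests, and the smallest adjusted p among them ranged from 0.102 to 0.778 over the families, from 0.147 to 1.00 for the mitochondrially encoded level and from 0.0641 to 0.906 for Ppargc1a. Genes called over the families numbered 508 with DESeq2, 27 without a filter, 53 with 5 whole tags and 0 to 175 leaving out 1 tumour (86 without tumour 04, 175 without 09, 3 without 07, 5 without 08, 1 without 12 and 0 without each of the other 5). On the mitochondrially encoded level 24 genes were called with DESeq2, 1 with the tag family as covariate and 0 leaving out any 1 tumour. On Ppargc1a 1 was called with DESeq2, 98 with Rpph1 as covariate, 167 without tumours 05, 06 and 07 and 0 leaving out any 1 tumour. Without tumours 05, 06 and 07, an alternative chosen after seeing the data, the mitochondrially encoded sum differed 2.79-fold, 33 nuclear slopes on it were positive with a median of -0.019, and 23 slopes on Ppargc1a were positive. Leaving out 1 tumour, the fold ran from 3.12 to 4.66 for the mitochondrially encoded sum and from 1.20 to 1.27 for the nuclear sum, positive slopes numbered 47 to 71 and, on Ppargc1a, 8 to 25 (25 without tumour 07). The cause of these changes was not tested. The leave-one-out values of the sums, limma and a covariate of 5 genes with few copies were also added after seeing the data. DESeq2 size factors, library totals without mitochondrial RNA and a prior count of 0.5 moved neither sum by as much as the SD between tumours. Depth limits the low isoforms, where 3 counts stand for up to 0.257 CPM.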
